A study of Mus musculus with 6 samples.

Results

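Expression of 10 genes of the epicardium, the outer cell layer of the heart, was compared between whole embryonic mouse hearts with and without the genotype that deletes Mrps5 in cardiomyocytes. The genes were Wt1, Tbx18, Tcf21, Upk3b, Upk1b, Aldh1a2, Krt19, Bnc1, Msln and Sema3d, taken by symbol from a table of 26191 genes. All 10 were listed, and all 10 were among the 13260 genes tested, those that reached an FPKM of 1 in 3 or more of the 6 libraries. FPKM is the number of sequenced fragments divided by the length of the transcript and by the size of the library, so it can be compared between genes. The control group was Mrps5 fl/fl and the mutant group was Mrps5 fl/fl; cTNT-Cre. Both groups therefore carried floxed Mrps5 alleles, and the controls, which were litter mates, carried no Cre. Hearts were taken at embryonic day 12 by the labels, and each of the 3 libraries per group was made from 5 pooled hearts. The Cre was driven by the troponin T2 promoter, which is active in cardiomyocytes, and the epicardium was not separated from the rest of the heart.

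The epicardium is a single sheet of mesothelial cells that spreads from the proepicardium over the surface of the early heart. Its cells make retinoic acid and growth factors that act on the myocardium, and receive signals from it. Some of them lose their epithelial character and enter the heart wall, where they give rise to fibroblasts and to the mural cells of the coronary vessels. Wt1, Tbx18, Tcf21 and Bnc1 encode transcription factors of this layer, Aldh1a2 the enzyme that makes retinoic acid, Upk3b, Upk1b and Msln proteins of the mesothelial surface, Krt19 an intermediate filament protein and Sema3d a secreted guidance protein.

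Mrps5, a protein of the small mitochondrial ribosome subunit, measured 9.65, 11.4 and 10.4 FPKM in controls. Mutant replicates 1 and 2 had 5.28 and 7.41. The library labelled mutant replicate 3 had 10.4, inside the control range. The log2 fold change, which throughout is on the log2(FPKM + 1) scale and mutant minus control, was -0.44 over all 6 libraries (SE 0.19), with an adjusted p of 0.338 from limma. Counts of the epicardial genes and of related lists are therefore given with and without the library labelled mutant replicate 3. Hemoglobin and other erythroid genes took 12.0% to 13.3% of the summed FPKM in controls and 23.5%, 10.8% and 22.0% in mutant replicates 1, 2 and 3. The 16 cardiomyocyte genes listed took 2.79% to 3.34% in controls and 2.04% to 2.54% in mutants. A whole heart library cannot tell fewer cells of a type from less RNA per cell.

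None of the 10 epicardial genes passed an adjusted p of 0.05 in limma, and 11 of the 13260 genes tested did (0.083%, of which 0.0528% higher and 0.0302% lower in mutants). At an unadjusted p under 0.05, Krt19 and Upk1b were higher in mutant hearts and none was lower. Among all genes tested 15% passed that threshold, 5.57% higher and 9.43% lower. The same 2 genes were those whose mutant and control values did not overlap, both higher, against 20.8% of all genes, 7.74% higher and 13% lower. The smallest p that an exact permutation test can give with 3 libraries against 3 is 0.1. The log2 fold change was positive for 6 of the 10 genes and for 45% of all genes. Its median was 0.04 over the 10 genes and -0.02 over all genes. The ratio of mean FPKM reached 1.5 for Krt19 alone, and 7.53% of all genes differed by that ratio in either direction.

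Without the library labelled mutant replicate 3, Krt19 was the 1 gene of the 10 with an adjusted p under 0.05. In that comparison 2.04% of all genes passed, 1.03% higher. At an unadjusted p, Krt19, Upk1b and Aldh1a2 were higher, against 15.2% of all genes in either direction and 6.42% higher. Values did not overlap for Krt19, Upk1b, Aldh1a2 and Tcf21, all higher, where 32.5% of all genes did not overlap and 14.9% were higher. The comparison without this library rests on 2 mutant libraries.

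**Figure D1:**
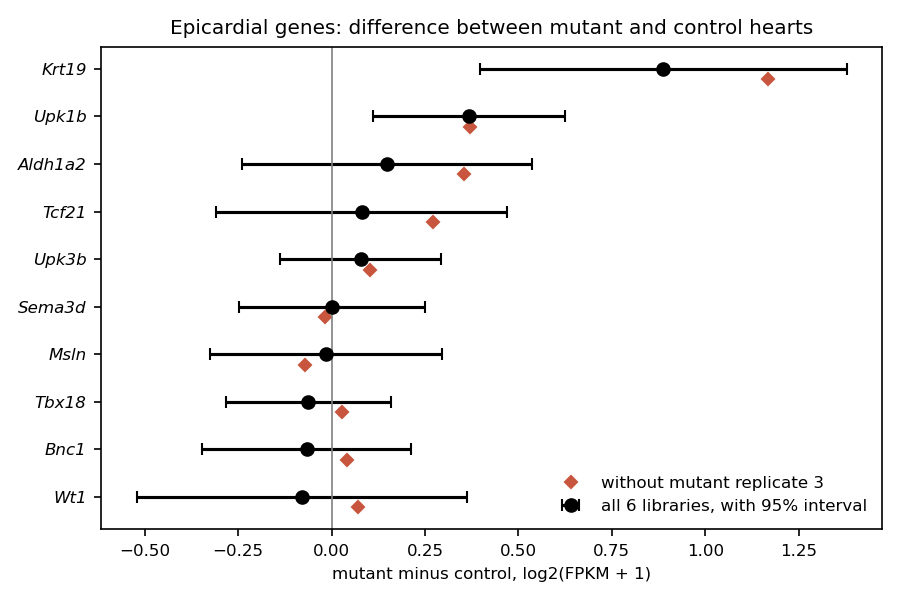
Log2 difference between mutant and control hearts for each epicardial gene, on the log2(FPKM + 1) scale. Black points are fitted values over all 6 libraries with their 95% intervals, and red diamonds are the values without mutant replicate 3. The intervals of Krt19 (0.40 to 1.38) and Upk1b (0.11 to 0.62) lie above 0, and those of the other 8 genes cross it.

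In control hearts, Upk3b had the highest mean level of the 10 genes and Msln the lowest. Mean FPKM was 42.8 for Upk3b, above the means of 90.2% of the genes tested. Tbx18 (25.8), Tcf21 (25.1), Aldh1a2 (22.3), Krt19 (20.7), Wt1 (17.0), Sema3d (15.0) and Upk1b (13.2) followed. Bnc1 was at 7.38, and Msln at 1.31, above the means of 4.51% of the genes tested. Between neighbours in this order, control values did not overlap for Upk3b and Tbx18, for Upk1b and Bnc1, or for Bnc1 and Msln. The other neighbours overlapped.

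Wt1, a zinc finger factor whose loss in mice leaves a defective epicardium, was at 15.0, 22.3 and 13.8 FPKM in the controls, in the order of replicates 1, 2 and 3. In the mutants, in the same order, it was at 18.3, 16.8 and 12.5. Control replicate 2 was highest and mutant replicate 3 lowest, and the groups overlapped. Means were 17.0 ± 4.63 (SD, n = 3) and 15.9 ± 2.99. In limma the log2 fold change was -0.08 (SE 0.19, 95% interval -0.52 to 0.36) with an adjusted p of 0.879.

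The table listed 7 Wt1 transcripts, and the high total of control replicate 2 came from 1 of them. Wt1-201, a form that starts at a downstream first exon, was at 15.2 in control replicate 2 and 3.49 in mutant replicate 3. It was listed at 0 in the other 4 libraries. It made up 67.9% of the Wt1 total in control replicate 2. Wt1-209, the most abundant form in the other 5 libraries, was at 8.41, 3.92 and 7.47 in controls and 9.82, 10.2 and 5.64 in mutants. The 2 libraries with Wt1-201 were the 2 lowest for Wt1-209. Without the Wt1-201 row, which was set aside after its values had been seen, the total was 15.0, 7.16 and 13.8 in controls and 18.3, 16.8 and 9.05 in mutants. The log2 fold change was then 0.28, of the opposite sign, with an adjusted p of 0.71. It was also positive without control replicate 2 (0.12) and without mutant replicate 3 (0.07), so no direction was established.

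**Figure D2:**
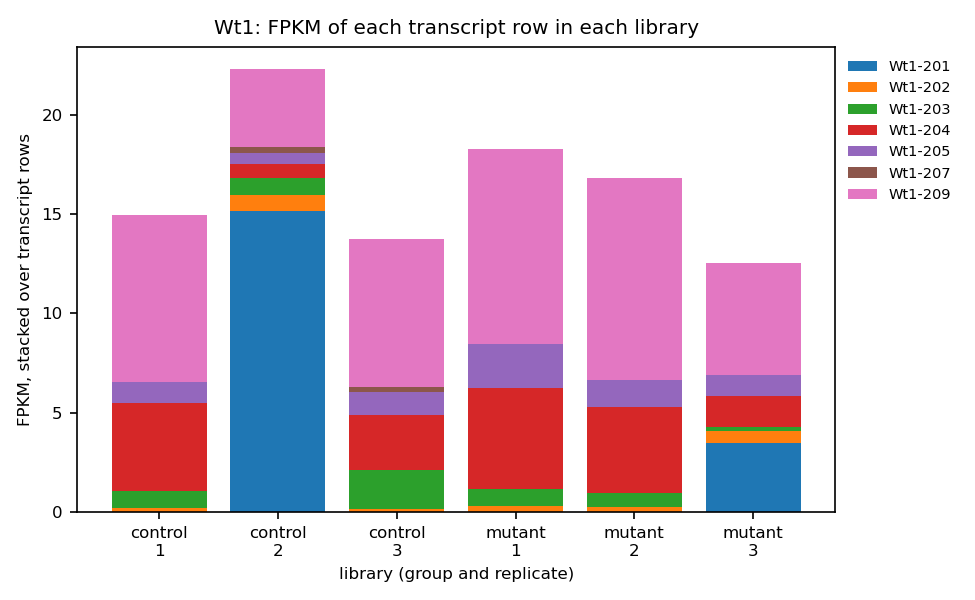
FPKM of each of the 7 Wt1 transcripts, stacked for each heart library. Wt1-201 fills 15.2 of 22.3 in control replicate 2 and 3.49 of 12.5 in mutant replicate 3, and it is at 0 in the other libraries, where Wt1-209 is the tallest segment.

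Wt1 messages differ in a cassette exon of 51 bases and in 9 bases at the end of the penultimate exon, which encode lysine, threonine and serine between the last zinc fingers. These segments are shown because the listed transcripts divide by them. Capitals mark the variable bases and lower case the neighbouring exon bases of Wt1-209 in the GENCODE M21 annotation. On GRCm38, plus strand, the exon lies at chr2:105144142-105144192 and the 9 bases at chr2:105170010-105170018, both within the coding sequence.

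Wt1 51-base exon: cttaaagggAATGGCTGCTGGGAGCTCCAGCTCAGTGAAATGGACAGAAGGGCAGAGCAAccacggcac

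Wt1 9-base alternative end: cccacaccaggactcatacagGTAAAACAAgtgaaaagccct

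Transcripts without the 51-base exon held 35.3%, 76.2% and 36.2% of the Wt1 FPKM in control replicates 1, 2 and 3. In mutants they held 32.5%, 29.99% and 42.1%. Control replicate 2 was highest, because Wt1-201 lacks this exon, and the other 5 libraries lay within 29.99% to 42.1%. Transcripts with the 9 bases were at 10.4, 20.8 and 10.9 in controls and at 12.9, 12.2 and 10.4 in mutants. Those without them were at 4.61, 1.51 and 2.88 in controls and at 5.37, 4.61 and 2.18 in mutants. The form with the 9 bases was the more abundant in each of the 6 libraries.

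Tbx18, a T-box factor of the proepicardium and epicardium, had an FPKM of 25.5, 26.4 and 25.6 in controls and 26.8, 26.0 and 21.7 in mutants. Mutant replicates 1 and 2 were close to the controls and mutant replicate 3 was below them. Means were 25.8 ± 0.513 (SD, n = 3) and 24.8 ± 2.76. The log2 fold change was -0.06 (SE 0.10, 95% interval -0.28 to 0.16), with an adjusted p of 0.806 in limma.

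Tcf21, a basic helix-loop-helix factor needed for cardiac fibroblasts to form from the epicardium, was at 23.2, 26.3 and 25.8 in controls and 34.3, 27.0 and 20.1 in mutants. Mutant replicates 1 and 2 were above every control and mutant replicate 3 was below every control. Group means were 25.1 ± 1.66 (SD, n = 3) and 27.2 ± 7.11, and the log2 fold change was 0.08 (SE 0.17, 95% interval -0.31 to 0.47) with an adjusted p of 0.861 in limma. The 1-exon transcript Tcf21-202 stayed between 1.87 and 2.29 in all 6 libraries, so the spread was in the 2-exon Tcf21-201.

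Bnc1, which encodes the zinc finger protein basonuclin 1, was at 7.12, 7.07 and 7.94 in controls and 8.23, 7.02 and 5.89 in mutants. Mutant replicate 1 was the highest of the 6 libraries and mutant replicate 3 the lowest. Means were 7.38 ± 0.491 (SD, n = 3) and 7.05 ± 1.17. The limma log2 fold change was -0.07 (SE 0.12, 95% interval -0.35 to 0.21) with an adjusted p of 0.834.

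Aldh1a2, the main retinoic acid synthesizing enzyme of the epicardium, was at 20.2, 23.2 and 23.3 in controls and 30.1, 27.3 and 18.3 in mutants. As for Tcf21, mutant replicates 1 and 2 were above every control and mutant replicate 3 was below every control. Means were 22.3 ± 1.75 (SD, n = 3) and 25.3 ± 6.17. In limma the log2 fold change was 0.15 (SE 0.17, 95% interval -0.24 to 0.54) with an adjusted p of 0.727. Without the library labelled mutant replicate 3 it was 0.36, with an unadjusted p of 0.00939 and an adjusted p of 0.159.

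Upk3b, a uroplakin found in the mesothelium of the heart and other organs, was at 40.6, 43.2 and 44.4 in controls and 50.5, 41.9 and 43.6 in mutants. Mutant replicate 1 was above the controls and the other 2 mutants were within their range. Means were 42.8 ± 1.93 (SD, n = 3) and 45.3 ± 4.60, with a limma log2 fold change of 0.08 (SE 0.09, 95% interval -0.14 to 0.29) and an adjusted p of 0.743.

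Upk1b, a uroplakin of the tetraspanin family, was at 11.1, 14.1 and 14.5 in controls and 18.2, 16.4 and 17.2 in mutants. Each mutant library was above each control library, mutant replicate 3 included. Means were 13.2 ± 1.86 (SD, n = 3) and 17.2 ± 0.886, a ratio of 1.304. The log2 fold change was 0.37 (SE 0.11, 95% interval 0.11 to 0.62), with an unadjusted p of 0.0108 and an adjusted p of 0.207 in limma, so the difference did not pass the correction over all genes. It ranked 687 of 13260 genes by p.

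Msln, the mesothelial surface glycoprotein mesothelin, was near the lower limit of the filter. It was at 1.11, 1.26 and 1.57 in controls and 1.22, 1.17 and 1.46 in mutants. The mutant values lay inside the control range, and the limma log2 fold change was -0.02 (SE 0.14, 95% interval -0.33 to 0.30) with an adjusted p of 0.971.

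Sema3d, a class 3 semaphorin secreted by epicardial cells, was at 13.3, 16.3 and 15.3 in controls and 13.3, 16.2 and 15.3 in mutants. Means were 15.0 ± 1.53 (SD, n = 3) and 15.0 ± 1.48, and the log2 fold change was 0.00 (SE 0.11, 95% interval -0.25 to 0.25) with an adjusted p of 0.999 in limma. Its shorter transcript, Sema3d-205, was at 1.33, 1.75 and 1.98 in controls and 0.988, 1.251 and 0.762 in mutants. These values of a minor form, singled out after they had been seen, did not overlap and were lower in mutants, while the main form, Sema3d-201, overlapped between groups (12.0 to 14.6 in controls and 12.3 to 15.0 in mutants).

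**Figure D3:**
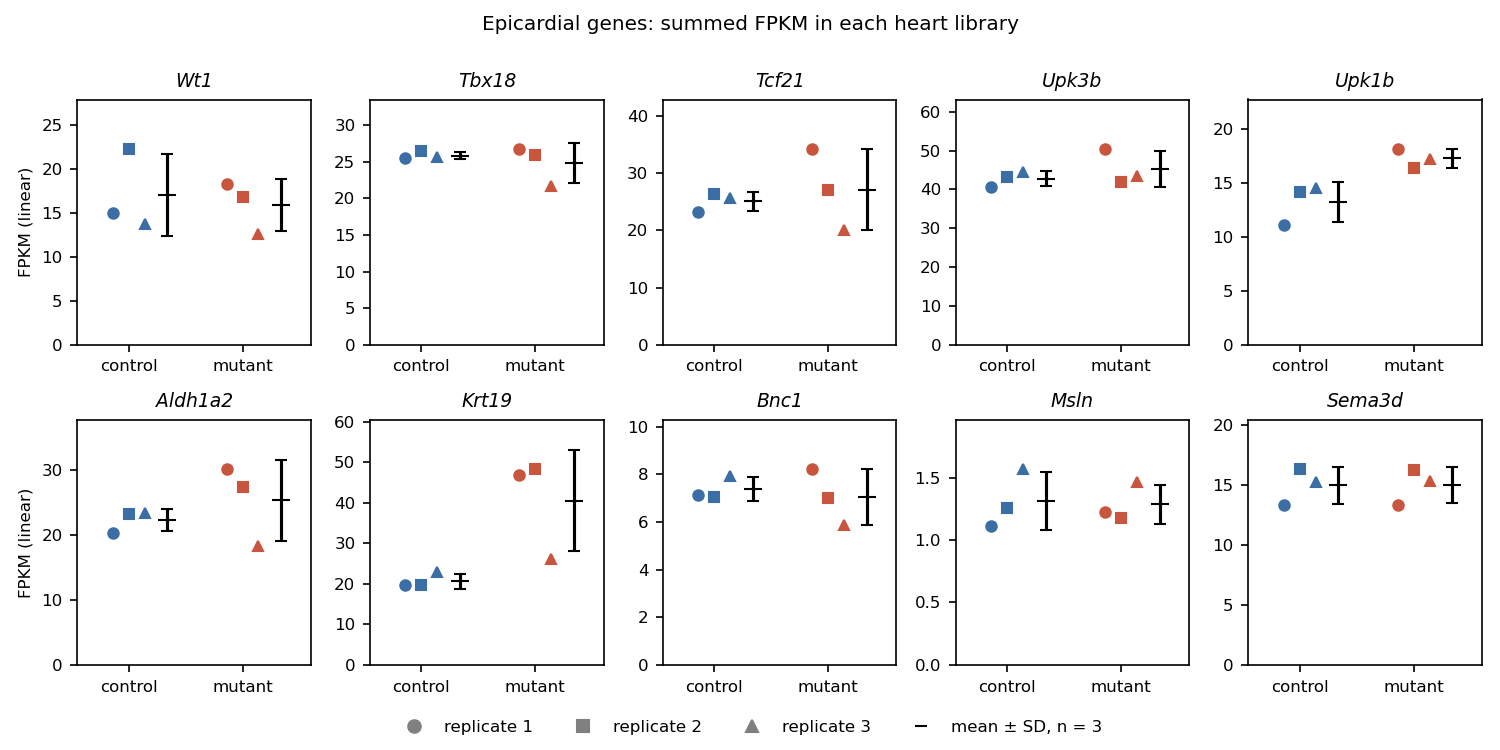
Summed FPKM of each epicardial gene in each heart library, on linear axes that start at 0, with control libraries in blue, mutant libraries in red and the mean ± SD of 3 libraries beside them. Krt19 (20.7 against 40.5) and Upk1b (13.2 against 17.2) are the 2 panels in which the groups do not overlap.

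Krt19, a type I keratin of simple epithelia, showed the largest difference of the 10 genes. It was at 19.6, 19.6 and 22.8 in controls and 46.9, 48.4 and 26.1 in mutants. All 3 mutants were above the controls, with mutant replicates 1 and 2 far above and mutant replicate 3 just above. Means were 20.7 ± 1.85 (SD, n = 3) and 40.5 ± 12.5, a ratio of 1.96. The log2 fold change was 0.89 (SE 0.21, 95% interval 0.40 to 1.38), with an unadjusted p of 0.00297 and an adjusted p of 0.153 in limma. Without the library labelled mutant replicate 3 it was 1.17 (SE 0.10), with an adjusted p of 0.00113. Over the alternatives tried, the adjusted p of Krt19 ranged from 0.00113 to 0.45 and its log2 fold change from 0.74 to 1.17.

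Other keratins of simple epithelia were examined beside Krt19. Krt8, a type II keratin, was at 9.11, 14.7 and 9.82 in controls and 17.8, 25.5 and 20.2 in mutants. Krt18, its type I partner, was at 17.5, 20.7 and 17.6 in controls and 27.7, 34.3 and 27.8 in mutants. For both genes every mutant library, mutant replicate 3 included, was above every control library. The limma log2 fold change was 0.87 (SE 0.19, adjusted p 0.134) for Krt8 and 0.66 (SE 0.11, adjusted p 0.0824) for Krt18, so neither passed the threshold with all 6 libraries. Without mutant replicate 3, Krt18 passed it, at 0.71 with an adjusted p of 0.0333. Krt7 was at 5.22, 5.42 and 4.80 in controls and 5.81, 6.28 and 5.50 in mutants, a difference of 0.16 (adjusted p 0.478).

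Krt8 and Krt18 are made in many epithelia and in embryonic cells, so markers of other epithelia were read in the same libraries. Epcam was at 0.795, 0.801 and 0.987 in controls and 0.868, 3.12 and 1.62 in mutants. Cdh1, which encodes E-cadherin, was at 0.415, 0.983 and 1.11 in controls and 0.538, 2.87 and 1.77 in mutants, with a log2 fold change of 0.49 (adjusted p 0.511). Both were highest in mutant replicate 2 and within the control range in mutant replicate 1, where Krt19 was at 46.9. The 12 genes listed for lung bud and gut epithelium summed to 4.06 to 5.43 FPKM in controls and to 3.99, 12.0 and 7.98 in mutants, and 1 of the 12, Cldn6, passed the filter. In mutant replicate 1, 0 of the 12 were above every control and 4 were below, in mutant replicate 2, 8 were above and 0 below, and in mutant replicate 3, 4 were above and 3 below. Cldn6 was at 0.743, 1.14 and 1.07 in controls and 0.865, 2.61 and 2.42 in mutants (0.53, adjusted p 0.370). Krt5 was at 0.107, 0.502 and 0.213 in controls and 0.264, 1.31 and 1.69 in mutants, and Cldn4 at 0.263, 0.501 and 0.318 in controls and 0.176, 1.36 and 0.882 in mutants. These 3 genes and Epcam were the 4 above every control in mutant replicate 3, where Foxa1 (0.282), Shh (0.104) and Sox2 (0.240) were below every control. Nkx2-1 was at 0.743, 0.280 and 0.557 in controls and 0.242, 1.002 and 0.418 in mutants, and Foxa2 stayed between 0.244 and 0.772 in the 6 libraries. Sftpb was at 0 in all 6 libraries, Cdx2 was at 0 in 5 of them and Sftpc in 3. The part of other epithelia in the keratin values was not tested.

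**Figure D4:**
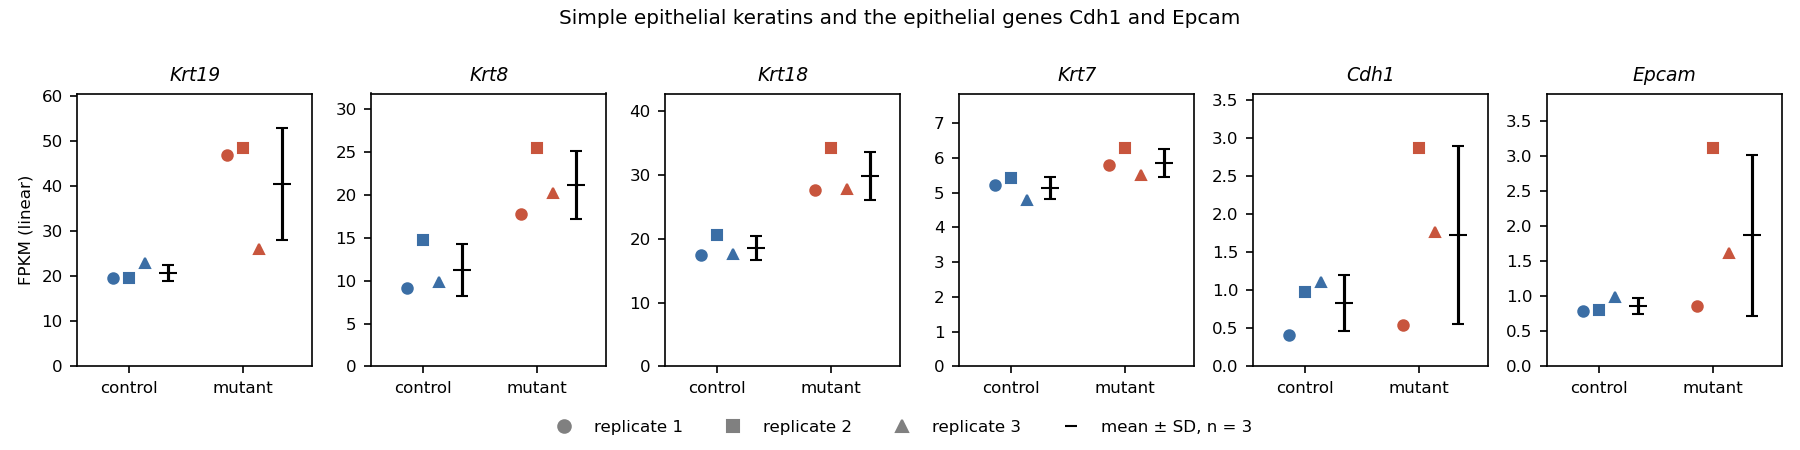
FPKM of Krt19, of the keratins Krt8, Krt18 and Krt7 and of the epithelial adhesion genes Cdh1 and Epcam in each heart library, on linear axes, with the mean ± SD of 3 libraries. Krt19, Krt8, Krt18 and Krt7 do not overlap between groups, whereas Cdh1 and Epcam overlap and are highest in mutant replicate 2 (2.87 and 3.12).

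How many epicardial genes lay outside the control range differed between the mutant libraries. In mutant replicate 1, 7 of the 10 genes were above every control and 0 were below, against 24.2% and 38.1% of all genes. In mutant replicate 2, 4 were above and 1 was below (35% and 26.3% of all genes). In the library labelled mutant replicate 3, 2 were above and 5 were below (24.4% and 40.3% of all genes). The genes below every control there were Wt1, Tbx18, Tcf21, Aldh1a2 and Bnc1. These are the 4 transcription factors and the retinoic acid enzyme, a grouping by function that was not tested. The 2 above were Krt19 and Upk1b. Wt1 was below every control only with the transcript that made up most of its total in control replicate 2. Without that transcript Wt1 was at 9.05 in mutant replicate 3, inside the control range of 7.16 to 15.0.

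The median log2 difference of the 10 genes from their control means was 0.19, 0.06 and -0.11 in mutant replicates 1, 2 and 3. In controls it was -0.12, 0.05 and 0.06, so the control libraries also differed among themselves. The mutant SD of the log2 values was the larger for 6 of the 10 genes, Tbx18, Tcf21, Upk3b, Aldh1a2, Krt19 and Bnc1, and for 61% of all genes. FPKM summed over the 10 genes was 177, 199.8 and 195 in controls and 248, 228 and 182 in mutants. Without Krt19 the sum was 157, 180.2 and 172 in controls and 201, 179.8 and 156 in mutants. Per 1000 FPKM of the cardiomyocyte genes, the 10 genes had 12.4, 15.3 and 12.4 FPKM in controls and 23.5, 19.7 and 14.5 in mutants. The ratio was highest in mutant replicate 1 and overlapped between the groups in mutant replicate 3.

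**Figure D5:**
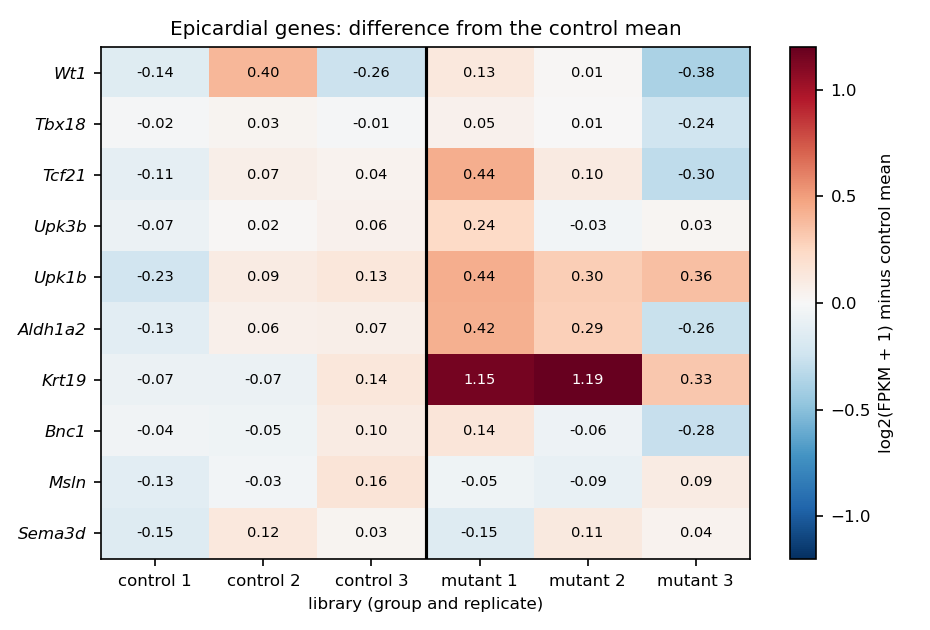
Difference of each epicardial gene in each library from its control mean, on the log2(FPKM + 1) scale, in red where higher and in blue where lower. Krt19 and Upk1b are red in the 3 mutant columns, while Wt1, Tbx18, Tcf21, Aldh1a2 and Bnc1 are red in mutant replicate 1 and blue in mutant replicate 3.

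The levels of other cell types moved between the same libraries. The summed FPKM of the 10 genes was highest in mutant replicate 1, where the erythroid share was highest (23.5%) and the cardiomyocyte share lowest (2.04%). Mutant replicate 3, with an erythroid share of 22.0%, had 182. All 16 cardiomyocyte genes had a negative log2 fold change, with a median of -0.33, where 45% of all genes had a positive one. Without overlap between groups, 12 of the 16 were lower, against 13% of all genes. Tnnt2, which encodes cardiac troponin T, was at 1044, 948 and 983 in controls and 617, 667 and 683 in mutants (-0.60, SE 0.11, limma adjusted p 0.0952). When FPKM was scaled to equal sums without erythroid genes, the counts of epicardial genes stayed at 0 by adjusted p, 2 by unadjusted p and 2 without overlap. The part of cell type shares in the epicardial values was not tested.

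Among 28 other mesothelial genes, 25 were tested. With all 6 libraries 0 passed an adjusted p of 0.05 in limma. At an unadjusted p 3 were higher (Krt18, Krt8 and Podxl) and 1 was lower (Muc16), against 5.57% and 9.43% of all genes. The median log2 fold change of the 25 was 0.15. Podxl, an anti-adhesive sialomucin of the apical surface, was at 29.4, 37.6 and 31.4 in controls and 39.0, 46.8 and 42.2 in mutants (0.37, adjusted p 0.206). Muc16, a mesothelial mucin that binds mesothelin, was at 5.65, 5.23 and 4.22 in controls and 4.01, 4.26 and 2.91 in mutants (-0.36, adjusted p 0.314). Lrrn4, a mesothelial membrane protein, was at 13.5, 16.3 and 14.7 in controls and 15.6, 13.8 and 16.0 in mutants (0.03, adjusted p 0.921). When mutant replicate 3 was left out, 1 of the 25 (Krt18) passed the adjusted threshold, and at an unadjusted p 5 were higher (Krt8, Krt18, Itga4, Podxl and Bnc2) and 2 lower (Dpp4 and Nkain4). Muc16 was then not among them.

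Of 22 genes of retinoic acid synthesis, binding, breakdown and reception, 16 were tested. With all 6 libraries 0 passed an adjusted p of 0.05. At an unadjusted p 2 were higher and 0 were lower, against 5.57% and 9.43% of all genes. The median log2 fold change of the 16 was 0.16. Aldh1a1, another retinaldehyde dehydrogenase, was at 2.77, 4.64 and 3.70 in controls and 5.91, 6.55 and 4.11 in mutants (0.47, adjusted p 0.301). Crabp1, a cytosolic retinoic acid binding protein, was at 3.88, 6.21 and 6.30 in controls and 18.9, 14.9 and 4.91 in mutants (0.96, SE 0.41, adjusted p 0.321). Its mutant replicates 1 and 2 were above every control and mutant replicate 3 was within the control range. Leaving that library out gave 1.49 (SE 0.19), with an adjusted p of 0.00727.

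Crabp2, the related binding protein, was at 2.21, 3.27 and 3.64 in controls and 5.95, 7.73 and 2.55 in mutants. It passed the threshold without mutant replicate 3 (0.96, adjusted p 0.0422) and not with it (0.59, adjusted p 0.412). Without that library 7 of the 16 genes were higher at an unadjusted p and 0 were lower, where 6.42% of all genes were higher. Rarb, a receptor gene that retinoic acid induces, was at 9.01, 8.82 and 9.23 in controls and 9.25, 9.004 and 6.47 in mutants (-0.13, adjusted p 0.683). In mutant replicate 3 Rarb was below every control, as were Aldh1a2 and 40.3% of all genes. Of the 22 listed genes, 9 were below every control there and 2 were above. Those 2 were Tgm2 (87.3, against 76.7, 73.6 and 85.0 in controls) and Nrip1 (15.4, against 13.3, 15.0 and 13.9).

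Of 36 signals and receptors between epicardium and myocardium, 32 were tested. With all 6 libraries 0 passed an adjusted p of 0.05 in limma. At an unadjusted p 2 were higher and 6 lower, against 5.57% and 9.43% of all genes. The median difference of the 32 was -0.02 on the log2 scale. The lower genes with the smallest p were Slit2, Wnt5a and Epo. Slit2, a secreted guidance ligand, was at 18.5, 16.1 and 21.02 in controls and 12.9, 10.7 and 11.4 in mutants (-0.62, SE 0.12, adjusted p 0.103). Wnt5a, a secreted Wnt ligand, was at 15.0, 15.8 and 17.1 in controls and 11.7, 11.6 and 12.8 in mutants (-0.38, adjusted p 0.148). The mutant and control values of Slit2 and Wnt5a did not overlap.

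Epo, the hormone erythropoietin, was at 3.08, 1.53 and 3.59 in controls and 0.0525, 1.604 and 0 in mutants (-1.37, adjusted p 0.178). Mutant replicate 2, the mutant with the lowest erythroid share, was within the control range. Igf2, the main mitogen that the epicardium of midgestation secretes for cardiomyocytes, was at 1035, 1015 and 1112 in controls and 943, 1022 and 497 in mutants (-0.43, adjusted p 0.461). Cxcl12, a chemokine of coronary vessel growth, was at 50.1, 49.7 and 59.1 in controls and 51.02, 40.3 and 26.9 in mutants (-0.46, adjusted p 0.3399). Both were lowest in mutant replicate 3. Without that library, 6 of the 32 were higher, instead of 2, and 5 were lower, instead of 6, at an unadjusted p. Of all genes 15.2% then passed, 6.42% higher. In that fit 1 of the 32 passed an adjusted p of 0.05, Angpt1 (-1.28, adjusted p 0.0266, against -0.97 and 0.195 with all 6), a ligand that cardiomyocytes and other cells of the heart secrete.

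Of 20 genes of the transition of epicardial cells to mesenchyme, 19 were found and tested. With all 6 libraries 0 passed an adjusted p of 0.05. At an unadjusted p 1 was higher and 2 were lower, against 5.57% and 9.43% of all genes. The median log2 fold change of the 19 was 0.00. Jag1, a Notch ligand, was at 13.0, 12.6 and 14.7 in controls and 10.6, 9.81 and 9.90 in mutants (-0.38, SE 0.09, adjusted p 0.153). Snai1, a repressor of epithelial genes, was at 3.51, 2.80 and 3.10 in controls and 5.40, 5.62 and 3.52 in mutants (0.48, SE 0.16, adjusted p 0.232). Mrtfb, a coactivator of serum response factor, was at 13.0, 9.69 and 12.7 in controls and 8.38, 9.99 and 8.47 in mutants (-0.36, adjusted p 0.260).

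Pdgfra, the receptor that marks the fibroblast branch of epicardium-derived cells, was at 22.8, 22.7 and 23.1 in controls and 32.5, 37.0 and 18.4 in mutants (0.29, adjusted p 0.577). Pdgfrb, the receptor of the mural branch, was at 9.99, 9.94 and 9.57 in controls and 11.8, 13.7 and 7.03 in mutants (0.08, adjusted p 0.876). For both, as for Tcf21 and Aldh1a2, mutant replicates 1 and 2 were above every control and mutant replicate 3 was below every control. In the fit without mutant replicate 3, Snai1 (0.66, adjusted p 0.0375) and Pdgfra (0.58, adjusted p 0.0237) were the 2 of 19 that passed the threshold. At an unadjusted p 6 were then higher and 1 was lower, Jag1, where 15.2% of all genes passed and 6.42% were higher.

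Of 21 genes of mesenchyme, fibroblasts and mural cells, 20 were tested. With all 6 libraries 0 passed an adjusted p of 0.05. At an unadjusted p 0 were higher and 5 lower, against 5.57% and 9.43% of all genes. The median difference of the 20 was -0.02 on the log2 scale. Rgs5 was at 8.87, 10.8 and 12.3 in controls and 9.09, 6.49 and 4.09 in mutants (-0.67, adjusted p 0.249). Abcc9 was at 19.2, 14.8 and 18.6 in controls and 8.78, 10.4 and 16.3 in mutants (-0.56, adjusted p 0.263). Both genes are found in pericytes among other cells, and both overlapped between the groups. Of the other genes of pericytes and smooth muscle, Cspg4 (-0.25, adjusted p 0.294), Tagln (-0.25, adjusted p 0.293) and Acta2 (-0.32, adjusted p 0.438) had negative values, Notch3 (0.03, SE 0.16) and Pdgfrb (0.08, SE 0.20) were near 0, and Myh11 was at 0.38 (SE 0.29). Kcnj8, the channel partner of Abcc9, had a mean FPKM of 0.647 in controls and 0.689 in mutants and was not tested. Without mutant replicate 3, 3 of the 20 genes were higher at an unadjusted p (Ddr2, Myh11 and Col1a2), where 0 were higher with all 6 libraries. The 5 lower in that fit were Rgs5, Cspg4 (-0.29), Abcc9, Acta2 (-0.51) and Cnn1. Of all genes 15.2% then passed, 6.42% higher. Cnn1, which encodes the smooth muscle protein calponin 1, was at 57.5, 56.5 and 67.1 in controls and 44.8, 50.6 and 52.9 in mutants (-0.28, adjusted p 0.263). In the fit without mutant replicate 3, Ddr2, a collagen receptor of fibroblasts (1.39, adjusted p 0.00107), and Abcc9 (-0.80, adjusted p 0.0271) passed the threshold. With all 6 libraries Ddr2 was at 4.41, 4.41 and 5.56 in controls and 14.4, 13.8 and 3.13 in mutants (0.77, adjusted p 0.458), with mutant replicate 3 below every control.

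Promoter sequence was available for 6 of the 10 genes in the RefSeq table on GRCm38.p6, namely Tbx18, Tcf21, Upk3b, Aldh1a2, Bnc1 and Sema3d. The 250 bases before the start were searched on both strands for 5 short motifs, and matches were compared with 32851 promoters of the same length. The TEAD motif GGAATG was in 1 of the 6, Upk3b, and in 12.6% of all promoters. The T-box motif GGTGTG was in 1, Bnc1, and in 16.3%. The GATA motif AGATAA was in 1, Tcf21, and in 9.99%. The core GNGGGNG of WT1 and EGR zinc fingers was in 5 and in 60.3%, and the E-box CANNTG was in 4 and in 66.2%. Matches to GNGGGNG may overlap each other.

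The promoters of Tcf21 and Aldh1a2 are shown because these genes had the same order between the mutant libraries, above every control in replicates 1 and 2 and below every control in replicate 3. Capitals mark AGATAA in Tcf21 (chr10:22820144-22820393, minus strand) and GNGGGNG on either strand in Aldh1a2 (chr9:71215539-71215788, plus strand). The Aldh1a2 window held 7 matches and had a GC content of 77.6%, and the Tcf21 window 1 match and 52.4%, where the median of all promoters was 52.4%. A match is a description of the letters and not a bound site.

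Tcf21 promoter: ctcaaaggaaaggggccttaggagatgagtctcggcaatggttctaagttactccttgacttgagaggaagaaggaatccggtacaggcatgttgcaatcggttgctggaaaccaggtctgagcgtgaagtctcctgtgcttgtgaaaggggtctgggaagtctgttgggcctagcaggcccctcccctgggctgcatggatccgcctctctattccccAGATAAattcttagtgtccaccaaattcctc

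Aldh1a2 promoter: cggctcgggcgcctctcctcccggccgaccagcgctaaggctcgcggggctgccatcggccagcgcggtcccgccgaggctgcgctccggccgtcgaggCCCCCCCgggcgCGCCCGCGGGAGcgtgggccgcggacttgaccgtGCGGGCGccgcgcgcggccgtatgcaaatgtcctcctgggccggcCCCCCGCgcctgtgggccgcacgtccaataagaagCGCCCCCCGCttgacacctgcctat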

How the data were processed

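RNA was sequenced from 3 control and 3 mutant heart pools after ribosomal RNA removal, with strand-specific libraries. The authors deposited 1 table of FPKM for 60776 transcripts. The submitters' processing notes name Bowtie2 2.2.8, HISAT2, StringTie 1.3.1, Cuffdiff 2.1.1 and the mm9 build without giving their roles, whereas 96.7% of the Ensembl transcript identifiers were found in GENCODE M21 on GRCm38. Read depth is unknown, because FPKM sums, 454692 to 515952 per library, do not give it. FPKM was summed per gene identifier. Genes that reached an FPKM of 1 in 3 or more libraries were compared on log2(FPKM + 1) with limma 3.58.1 (eBayes with trend) in R 4.3.3, with Benjamini-Hochberg adjustment over the 13260 genes tested, a threshold of 0.05 and two-sided p-values. Such fold changes understate those of low genes. The p-values measure the spread between pools. The fit was tested on simulated data. The 10 genes and the other lists were chosen with earlier results of these data known. In other lists, up to 3 genes with the smallest p under 0.05, any with an adjusted p under 0.05, and preset genes were named. Krt7, Cdh1, further lung, gut and mural genes and genes named for values without mutant replicate 3 were added after their values were seen. Alternatives changed the pseudocount, filter, transcript sum, scaling, variance trend and replicate block, or left out each library. Some listed genes are not reported here.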

Additional observations from a re-analysis of the deposited data

How the results depend on the processing

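Over 15 alternatives, the log2 fold changes of Krt19 (0.74 to 1.17), Upk1b (0.25 to 0.43) and Aldh1a2 (0.01 to 0.36) stayed positive. Leaving out 1 library at a time gave 0 to 1 epicardial genes with an adjusted p under 0.05 in limma, 2 to 3 at an unadjusted p, 2 to 4 without overlap, a median log2 fold change of -0.02 to 0.10 and a Mrps5 value of -0.66 to -0.23. The single call and the 4 genes without overlap came without mutant replicate 3, where Krt19 was at 1.17. Signs reversed for genes near 0. Leaving out 1 library at a time, Wt1 ranged from -0.21 to 0.12, Tbx18 from -0.12 to 0.029, Tcf21 from -0.10 to 0.27, Upk3b from -0.00098 to 0.13, Bnc1 from -0.17 to 0.040, Msln from -0.078 to 0.063 and Sema3d from -0.076 to 0.077. Wt1 was at 0.34 by its most abundant transcript alone and at 0.28 without Wt1-201. With scaling to equal sums without erythroid genes, Msln was at 0.00047. The cause of these reversals was not tested.

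Over all genes, 11 passed the adjusted threshold. This count was 6 without the filter, 6 without the variance trend, 4 with the most abundant transcript alone, 121 without mutant replicate 2, 270 without mutant replicate 3 and 5 to 7 without any other library. At an unadjusted p the 1990 of 13260 genes became 1314 of 9041 tested when the mean FPKM had to reach 5. Without control replicate 1 they became 1216 of 13260. The replicate numbers were not taken to pair the libraries, since the correlations of same-numbered deviations were 0.217, 0.11 and 0.0901. Each library correlated best with its own number, a hint from the data and not the design. With the replicate number as a block, 4 of all genes passed the adjusted threshold, and 0 of the 10 epicardial genes did, with adjusted p-values of 0.163 for Krt19 and 0.214 for Upk1b. The block changed no call among them.

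With 3 pools per group and no read counts, the 95% intervals of 8 of the 10 genes include 0, and the precision of low genes such as Msln is unknown. The pools are of whole hearts, so no value is specific to epicardial cells.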

Other observations

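Lists of cells that could share a dissected heart gave these further values, each with 0 genes past an adjusted p of 0.05 in limma with all 6 libraries. Of 14 erythroid genes tested, 6 were higher at an unadjusted p and 0 lower, against 5.57% and 9.43% of all genes. The median difference of the 14 was 0.68 on the log2 scale. Klf1, an erythroid transcription factor, was at 18.5, 22.3 and 16.1 in controls and 36.5, 20.5 and 45.1 in mutants (0.75, adjusted p 0.242), Epb42 differed by 0.66 (adjusted p 0.276) and Slc4a1 by 0.82 (adjusted p 0.276). All 3 were within the control range in mutant replicate 2, which is where the erythroid share was lowest, and without mutant replicate 3 none of the 14 passed an unadjusted p.

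Of 12 endothelial genes, 1 was higher (Emcn, 0.27) and 2 were lower (Npr3, -0.25, and Esam, -0.26) at an unadjusted p. Without mutant replicate 3, Emcn was again higher, and Npr3 and Plvap were lower (limma unadjusted p 0.015 and 0.0452). Esam did not pass in that fit (limma unadjusted p 0.0847). Of 7 macrophage and leukocyte genes tested, 1 was lower, Lyz2, at 12.0, 10.1 and 9.10 in controls and 3.94, 4.89 and 7.76 in mutants (-0.84, adjusted p 0.153). Without mutant replicate 3, Lyz2 passed the adjusted threshold (-1.07, adjusted p 0.00742). Of the neural genes, Tubb3 was higher at an unadjusted p (0.47, adjusted p 0.242), and without mutant replicate 3 none was. Of the 16 cardiomyocyte genes, 10 were lower at an unadjusted p, against 9.43% of all genes. The smallest p-values in limma belonged to Tnnt2, Pln (-0.64, adjusted p 0.161) and Ttn (-0.51, adjusted p 0.173). Without mutant replicate 3, Tnni1 (-0.72, adjusted p 0.0162, against -0.51 and 0.253 with all 6) and Pln (-0.80, adjusted p 0.0248) passed the adjusted threshold.

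Liver lies next to the heart at this stage, and 12 of 14 liver genes passed the filter, with 0 at an unadjusted p under 0.05. Their summed FPKM was 189, 390 and 35.9 in controls and 125, 240.0 and 179 in mutants, a spread within the control group that exceeded the difference between groups. Alb alone ran from 0.67 to 52.9 FPKM over the control libraries.

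The genes whose levels over the 6 libraries were most like the mean standardized level of the 10 epicardial genes were Rpp38 (Pearson r 0.983), 1700047I17Rik2 (0.974), Rps24 (0.971), Gdf6 (0.967) and BC024978 (0.966), picked as the highest of 13260 genes over only 6 libraries that share the groups and their normalization. The epicardial mean level itself was -0.77, 0.14 and 0.14 in controls and 0.80, 0.28 and -0.59 in mutants, in SD units.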
